A study of Mus musculus with 8 samples.

Results

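The STAT transcription factors of mouse liver were followed at the level of messenger RNA: Stat2, Stat3, Stat4, Stat5a, Stat5b and Stat6, that is 6 of the 22183 genes of the deposited table, found by their symbols. Mouse STAT genes beyond these 6 were not analysed here. Whole liver was sequenced in 8 libraries from mice given 20% edible alcohol by daily gavage, 15 µL per g of body weight, for 2 weeks. The 4 control libraries came from Stat3flox/flox mice, in which both copies of Stat3 carry recombinase target sites. The 4 knockout libraries came from Stat3flox/flox;Alb-Cre mice, which also carry Cre recombinase under the albumin promoter and so delete Stat3 in cells that use this promoter, chiefly hepatocytes. Both groups carried the floxed alleles and both received alcohol, so the labelled difference is Cre, and unexposed or wild-type liver was not analysed here. The labels give no sex or age and do not say whether each library is a separate animal. Each p-value therefore covers the spread among these libraries, part of which may be technical. Counts of Y-linked genes, given below, differed widely within each group. The question put to the data was whether the messenger RNA of any of the other 5 genes was higher where Stat3 was deleted.

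STAT proteins lie latent in the cytoplasm until a cytokine or hormone receptor, through a bound Janus kinase, phosphorylates them on tyrosine. They then pair, enter the nucleus and bind DNA. In liver, STAT3 transmits interleukin-6 family signals to the acute-phase genes, STAT5A and STAT5B transmit growth hormone signals to genes such as Igf1, STAT2 acts with IRF9 in the response to type I interferon, STAT6 answers interleukin-4 and interleukin-13, and STAT4 serves interleukin-12 signalling mainly in T and NK cells. SOCS proteins and CISH, themselves induced by STATs, feed back to inhibit the receptors and kinases.

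The libraries held 15998391 to 19474696 counts each, and 11692 genes passed the filter on low counts and were tested. Testing used edgeR's quasi-likelihood test with Benjamini-Hochberg adjustment over all tested genes. At an adjusted p under 0.05, 4 genes were lower in knockout, 0.0342% of those tested, and 0 were higher. At an unadjusted p under 0.05 were 1639 genes, 14% of those tested, 990 of them lower and 649 higher. DESeq2 called 278 genes and limma-voom called 0. The groups did not overlap in 7.09% of all tested genes, 3.86% with knockout below control and 3.23% with knockout above. All 10 hepatocyte markers examined were detected, and albumin took 7.46% to 27.3% of the counts, highest in control 2. Kupffer and macrophage markers (10 of 10 tested) summed to 41.3 to 574 CPM (read counts scaled by library size) in control, lowest in control 3, and to 71.0 to 113 CPM in knockout. B cell markers (6 of 8 tested) summed to 12.5 to 26.1 CPM in control and 81.6 to 633 CPM in knockout, and stellate cell markers (8 of 8 tested) to 194 to 256 and 221 to 372 CPM. Y-linked genes had 5, 1, 1672 and 294 counts in controls 1 to 4 and 2, 728, 934 and 842 in knockouts 1 to 4. They exceeded 10 counts in controls 3 and 4 and in knockouts 2, 3 and 4. These libraries, called Y-positive below, were thus unlike in Y-linked counts, at 294 to 1672. The part of these differences in the results was not tested, beyond the fits with Y-linked reads.

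Sequences of these genes bear on how their counts can be read. Stat3 (chromosome 11, 100885098 to 100939540, minus strand, GRCm38), Stat5a (100859351 to 100885169, plus strand) and Stat5b (100780731 to 100850724, minus strand) lie side by side on chromosome 11, the targeted chromosome. In the GENCODE M21 annotation Stat3 and Stat5a overlap by 72 bases at their 3′ ends on opposite strands, and no source used here states whether counting used strand. The longest coding sequences of Stat5a and Stat5b were identical at 90.4% of 2294 aligned bases, and 10 separate exact runs of at least 50 bases were shared. The longest such run, of 324 bases, spans coding bases 571 to 894 of both genes. Its beginning, 150 bases, is shown because a read from it cannot be assigned to either gene by sequence:
Stat5a and Stat5b, shared coding run, plus sense of the messenger: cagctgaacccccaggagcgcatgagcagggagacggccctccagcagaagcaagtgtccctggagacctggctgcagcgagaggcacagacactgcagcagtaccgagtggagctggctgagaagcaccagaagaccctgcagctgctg
Of the 50-base windows in all annotated Stat5a transcripts, 8.21% also occurred in Stat5b transcripts, and no other pair among the 6 genes shared a window of this length. The deposited estimated counts carry the trace of this: in control 1 Stat5a was given 114.21 and Stat5b 1381.79, which add to 1496, and the sum of the pair was a whole number in all 8 libraries, also where the single values were not. The values of Stat5a and Stat5b are therefore uncertain in how reads were divided between them, and their sum is given beside them.

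RefSeq (GRCm38.p6) promoter windows were found for all 6 genes, 9 windows in all because some genes have alternative starts. In the 250 bases before each start, a script searched for the palindromic STAT dimer motif TTCNNNGAA and, on both strands, for the interferon response core, GAAA followed after any 2 bases by a further GAAA (TTTC and TTTC on the other strand). The interferon core was present in 2 of the 9 windows, that of Stat2 and the second window of Stat4, against 2.98% of 32536 promoter windows. TTCNNNGAA was present in 0 of the 9, against 7.04%. The windows of Stat2 and Stat3 are shown, since these were the members whose groups did not overlap, with the match in capitals, 222 bases before the start of Stat2:
Stat2 promoter, chr10:128270248-128270497, plus strand: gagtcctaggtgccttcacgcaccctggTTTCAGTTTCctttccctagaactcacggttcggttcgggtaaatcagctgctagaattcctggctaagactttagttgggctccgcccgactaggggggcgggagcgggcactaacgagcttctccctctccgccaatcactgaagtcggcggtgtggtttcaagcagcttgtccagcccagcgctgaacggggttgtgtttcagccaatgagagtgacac
Stat3 promoter, chr11:100939541-100939790, minus strand: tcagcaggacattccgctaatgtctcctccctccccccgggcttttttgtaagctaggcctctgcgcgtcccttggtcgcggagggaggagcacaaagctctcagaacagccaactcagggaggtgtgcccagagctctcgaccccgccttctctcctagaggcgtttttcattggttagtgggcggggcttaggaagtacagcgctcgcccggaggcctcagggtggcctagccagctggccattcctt
A match is a description of these letters and not a bound site.

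Among the 6 genes, Stat3 alone passed the test. It read 75.1, 72.9, 46.8 and 72.1 CPM in controls 1 to 4 and 27.3, 25.1, 29.7 and 28.4 CPM in knockouts 1 to 4. Every knockout library lay below every control library, and control 3 was apart from the other controls. Stat3 fell by 1.27 on the log2 scale (SE 0.17, 95% interval −1.65 to −0.89, adjusted p = 0.0469, edgeR's quasi-likelihood test), which left 41.4% of the control mean. These gene-level counts do not separate the floxed exons from the rest, and in whole liver fewer cells of a type and less RNA per cell cannot be told apart. The call rests on most libraries: leaving out 1 library at a time gave adjusted p of 0.00108 to 0.227, and it missed 0.05 without control 1, 2 or 4 or without knockout 2, 3 or 4, with log2 fold changes of −1.41 to −1.2. The call was also lost with limma-voom (adjusted p = 0.0670), total count scaling (0.0961), Alb removed (0.0521) and the replicate number as a block (0.107). Within the Y-positive libraries alone the value was −1.10 (adjusted p = 0.0449).

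**Figure D1:**
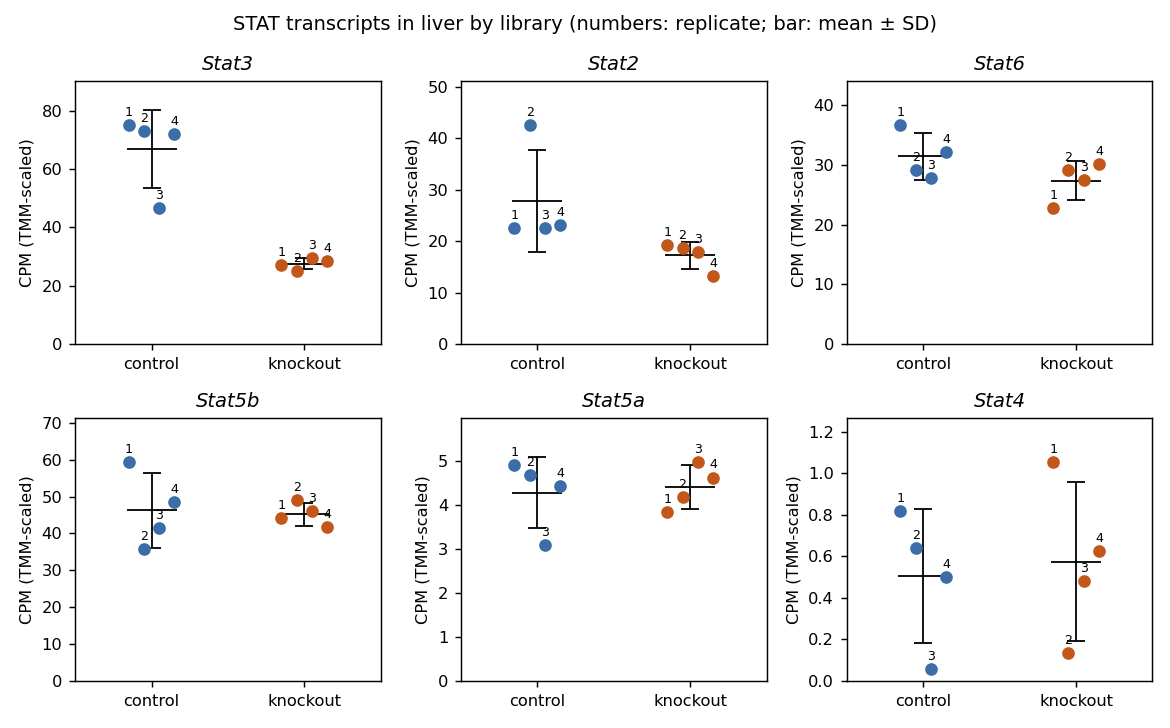
Level of each STAT transcript in CPM (vertical axis, linear, from 0) in the 4 control and 4 knockout libraries, numbered by replicate, with bars for mean ± SD. Stat3 is at 46.8 to 75.1 CPM in control and 25.1 to 29.7 CPM in knockout, and Stat2 is the only other gene whose groups do not overlap.

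Stat2, the interferon STAT, was the other member whose groups did not overlap, at a smaller margin. Controls 1 to 4 read 22.6, 42.6, 22.6 and 23.2 CPM and knockouts 1 to 4 read 19.2, 18.6, 17.9 and 13.3 CPM. Control 2 stood apart, and the other 3 controls lay close together, just above the knockouts. The log2 fold change was −0.68 (SE 0.23, 95% interval −1.19 to −0.18), with an adjusted p of 0.256 that did not pass (edgeR's quasi-likelihood test). Permuting the 8 CPM values exactly, two-sided, gave p = 0.0286 for Stat2 as for Stat3, which no arrangement of the 70 can undercut. Of the 5 members tested, 2 were lower without overlap, against 3.86% of all tested genes in that direction, and 1 of these 2 is the targeted gene itself. Without control 2 the value was −0.40 (adjusted p = 0.400). Control 2 was also the library in which albumin took most counts.

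Stat6 did not pass the test. It read 36.7, 29.2, 27.8 and 32.2 CPM in control and 22.7, 29.1, 27.6 and 30.2 CPM in knockout, and the groups overlapped, with controls 1 and 4 above every knockout and knockouts 1 and 3 below every control. The log2 fold change was −0.20 (SE 0.15, adjusted p = 0.557), and its 95% interval, as a fold, ran from 0.694 to 1.09.

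Stat5b, the main STAT5 of hepatocytes, had a control mean of 46.3 CPM (SD 10.2, n = 4) and a knockout mean of 45.2 CPM (SD 3.07, n = 4). Its controls were 59.5, 35.7, 41.4 and 48.4 CPM and its knockouts 44.1, 48.9, 46.0 and 41.7 CPM, so the knockouts lay inside the control range. The log2 fold change was −0.04 (SE 0.17, adjusted p = 0.939), with an interval of 0.753 to 1.265 as a fold. Stat5a, its lowly expressed paralog here, read 4.91, 4.68, 3.10 and 4.44 CPM in control and 3.86, 4.19, 4.99 and 4.63 CPM in knockout, again overlapping. Its log2 fold change was 0.04 (SE 0.21, adjusted p = 0.941), with an interval of 0.743 to 1.43 as a fold. Counted as 1 gene, a choice made after seeing the data, the pair was at 50.5 ± 10.6 and 49.6 ± 3.05 CPM, with a log2 fold change of −0.03 (95% interval −0.39 to 0.34). The signs of the Stat5a and Stat5b values turned under several other settings. In the Y-positive libraries alone (2 control, 3 knockout) the log2 fold changes were 0.28 for Stat5a, 0.02 for Stat5b, −0.05 for Stat6 and −0.47 for Stat2, and none passed.

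Stat4 was near the floor of detection and did not pass the filter on low counts. Controls 1 to 4 had 19, 9, 1 and 10 reads and knockouts 1 to 4 had 20, 2, 8 and 12, which is 39 against 42 in all. The libraries with the fewest counts, control 3 and knockout 2, belong to different groups. Fitted without a filter, its log2 fold change was 0.19 with an interval of 0.399 to 3.28 as a fold, so a change of either direction within that range was not detectable at this depth. T and NK cell markers (12 in all, none at 0 in every library) summed to 1.79 CPM in control 3 and to 6.35 to 18.8 CPM in the other libraries. Not every single marker was lowest in control 3. The part of these cells in the level of Stat4 was not tested.

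**Figure D2:**
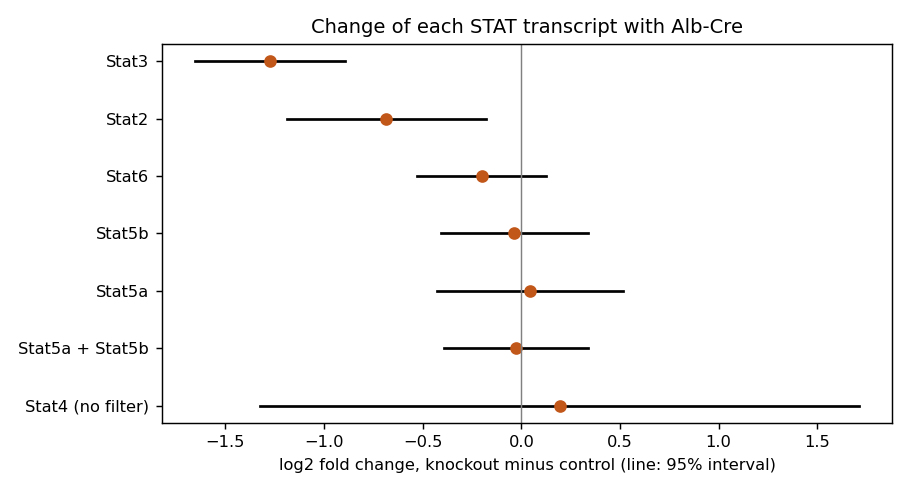
Log2 fold change of each STAT transcript, knockout minus control (points), with its 95% interval (lines), from edgeR's fit. Stat5a and Stat5b summed as 1 gene and Stat4 fitted without a filter on low counts are added, and of the 7 intervals those of Stat3 and Stat2 exclude 0.

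Levels of different genes were compared per length, as CPM per kb of merged annotated exons. In control the order was Stat5b (8.35 ± 1.84), Stat6 (7.15 ± 0.897), Stat3 (7.002 ± 1.40), Stat2 (4.68 ± 1.67), Stat5a (0.600 ± 0.114) and Stat4 (0.130 ± 0.0835), each mean ± SD of 4 libraries. Stat5b, Stat6 and Stat3 lay within their spread of each other. In knockout Stat5b (8.16 ± 0.553) and Stat6 (6.22 ± 0.750) were followed by Stat2 (2.91 ± 0.450) and Stat3 (2.90 ± 0.204), which were level. The place of Stat3 depends on the length used: by the longest transcript it led in control, at 11.04 ± 2.21 CPM per kb against 8.87 ± 1.96 for Stat5b.

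The summed level of the 6 genes was 23.0 to 31.7 CPM per kb in control and 20.0 to 21.8 CPM per kb in knockout. The share of Stat3 in this sum was 24.9% ± 2.50 (SD, n = 4) for control and 13.8% ± 1.2 (SD, n = 4) for knockout. The mean of Stat3 differed by −4.11 CPM per kb and that of the sum by −6.96. The 5 genes other than Stat3 together were at 20.9 ± 2.35 CPM per kb in control and 18.1 ± 0.935 in knockout, and these ranges overlapped (18.04 to 23.8 against 17.2 to 19.2). Because ratios within a library do not depend on scaling, Stat3 was also set against its most abundant relatives. The ratio of Stat3 to Stat5b CPM was 1.26, 2.04, 1.13 and 1.49 in control and 0.619, 0.512, 0.644 and 0.680 in knockout. The ratio of Stat3 to Stat6 CPM was 1.68 to 2.50 in control and 0.861 to 1.2 in knockout. Neither ratio overlapped between groups, whereas that of Stat3 to Stat2 did (1.71 to 3.32 against 1.35 to 2.13).

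**Figure D3:**
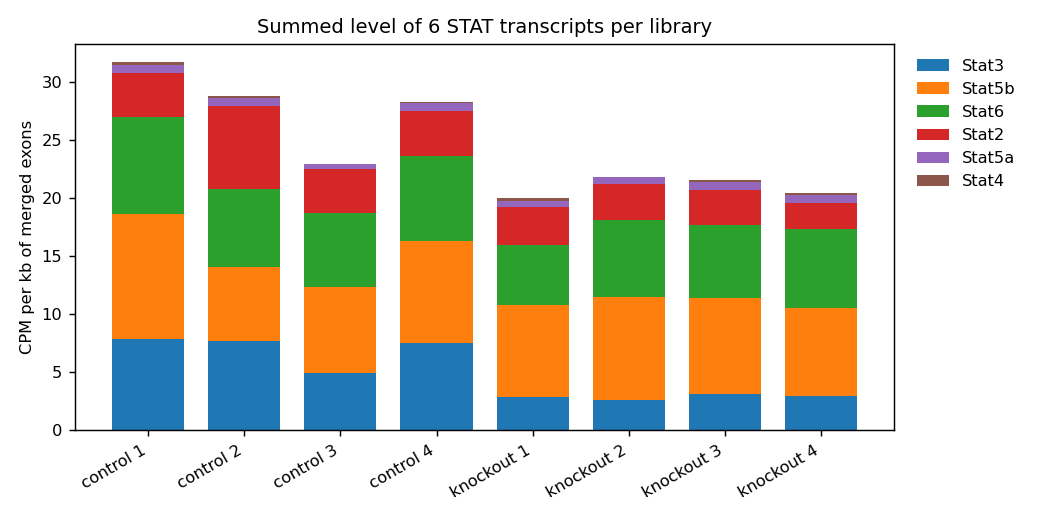
Stacked level of the 6 STAT transcripts in each library, in CPM per kb of merged exons (vertical axis, from 0). The Stat3 segment is 4.91 to 7.88 in control and 2.63 to 3.11 in knockout, the Stat5b segment is 6.45 to 10.7 and 7.53 to 8.83, and the Stat6 segment 6.31 to 8.34 and 5.16 to 6.86.

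Genes around the targeted locus were examined because Stat5a and Stat5b are its neighbours. Within 250 kb of Stat3 the table held 23 other genes, of which 14 were tested, and edgeR called 0 at an adjusted p under 0.05, DESeq2 1. At an unadjusted p under 0.05 were 4 of the 14 tested, beside 14% of all tested genes: Dhx58, Retreg3 (−0.36), Mlx (0.42) and Tubg1 (0.68). The adjoining genes had values near 0 or above: Stat5a at 0.04 and, on the other side, Cavin1, a coat protein of caveolae, at 0.45 (adjusted p = 0.440). Of the 14, the groups did not overlap in 1, a share near the 7.09% of all tested genes. This was Dhx58, which encodes LGP2, an interferon-induced RNA sensor, 180827 bases from Stat3. Dhx58 read 6.81 to 8.95 CPM in control and 3.65 to 3.96 CPM in knockout (log2 fold change −1.01, SE 0.17, adjusted p = 0.0583). Between Dhx58 and Stat3 lie the tested genes Kat2a (0.18), Rab5c, a vesicle gene (0.08), Ghdc (0.01), Stat5b and Stat5a. The other tested neighbours, on the far side of Stat3, were Atp6v0a1 (0.13), Naglu (0.49), Coasy (0.18) and Plekhh3 (0.60).

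**Figure D4:**
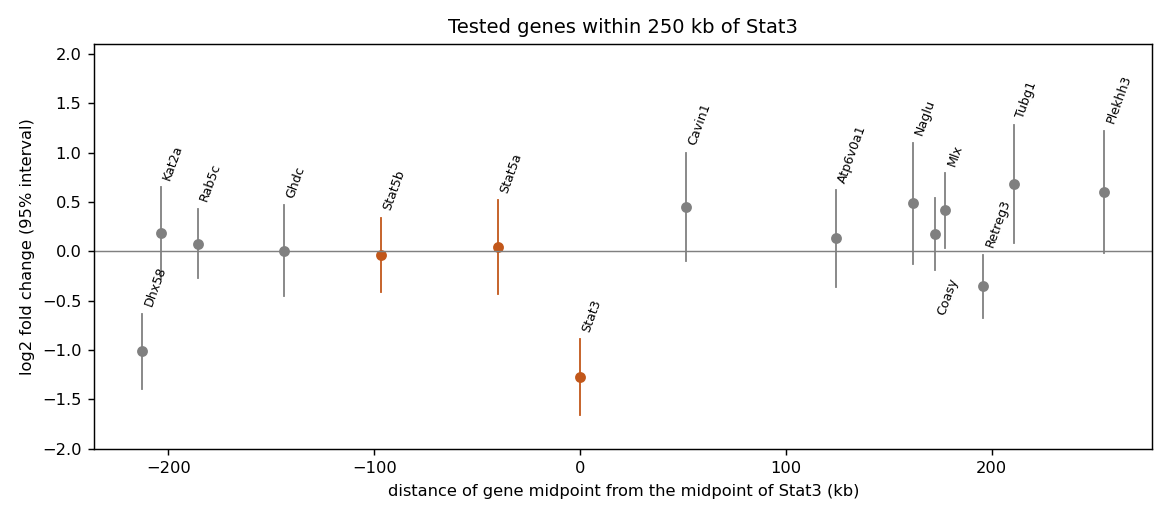
Log2 fold change (points) with 95% interval (lines) of tested genes by the distance of their midpoint from that of Stat3, in kb, with STAT genes in orange. Stat3 is at −1.27, Stat5a and Stat5b lie near 0, and the other genes lie between −1.01 (Dhx58) and 0.68 (Tubg1).

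Upstream of the STATs, edgeR called 0 receptor and 0 kinase genes. Of 30 cytokine and hormone receptor genes 28 were tested, with a median log2 fold change of −0.49 against −0.03 for all tested genes. Of the 28, 9 were lower and 1 higher at an unadjusted p under 0.05, beside 14% of all tested genes in either direction. DESeq2 called 3, beside 278 of all genes, and limma-voom called 0. EdgeR called 7 without control 3, beside 324 of all genes, 1 without knockout 1 and 0 without any other single library. The groups did not overlap in 3 of 28, beside 7.09% of all tested genes: Egfr, the EGF receptor (286 ± 29.8 to 102 ± 32.5 CPM, −1.49, adjusted p = 0.0583), Ifngr2, a chain of the interferon-gamma receptor (−0.90, adjusted p = 0.180), and, higher in knockout, Il11ra1, the interleukin-11 receptor (0.54). Csf2rb, the common beta chain of myeloid cytokine receptors, was at −1.80 (adjusted p = 0.167), and the Kupffer and macrophage markers had a median of −1.75. The 4 Janus kinases had a median of −0.31, with 2 lower at an unadjusted p under 0.05, beside 14% of all tested genes in either direction. DESeq2 called 0 of them. Jak1, which serves gp130 and interferon receptors, was the most abundant in CPM at 69.1 ± 8.69 in control and 55.5 ± 2.47 in knockout (−0.31, adjusted p = 0.352). Jak3, which serves lymphocyte receptors, was at −0.72 (adjusted p = 0.294) and Jak2, which serves the growth hormone receptor, at −0.31 (adjusted p = 0.518). Of 27 ligand genes 3 were tested, with 0 past an unadjusted p of 0.05 and 0 called in DESeq2 (Il15, Csf1 and Ctf1, at 0.16, 0.08 and 0.10), and 12, among them Il11, Osm and Il22, had 0 counts in all 8 libraries.

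Of 18 inhibitors of STAT signalling 16 were tested, with a median of −0.18. EdgeR called 0, with 5 lower at an unadjusted p under 0.05, beside 14% of all tested genes in either direction. DESeq2 called 2, beside 278 of all genes. EdgeR called 2 without control 3, beside 324 of all genes, and 2 in the Y-positive libraries alone, beside 125. It called 1 without knockout 1 and 0 without any other single library. The feedback inhibitors Cish and Socs3 were the inhibitors whose groups did not overlap, 2 of 16, beside 7.09% of all tested genes. Cish read 5.34, 7.80, 8.52 and 6.24 CPM in control and 3.38, 1.08, 2.47 and 2.13 CPM in knockout (−1.61, adjusted p = 0.0790). Socs3 went from 5.34 ± 1.17 to 2.41 ± 0.847 CPM (−1.14, adjusted p = 0.166). Usp18, an interferon-induced inhibitor of the type I interferon receptor, was at −1.0 (adjusted p = 0.267). Of 10 partners of STATs, all tested, edgeR called 0, with 2 lower at an unadjusted p under 0.05, beside the same 14%. DESeq2 called 1, beside 278 of all genes, as did edgeR without control 3, beside 324. EdgeR called 0 without any other single library. The groups did not overlap in 1 of 10, near the 7.09% of all tested genes. This was Irf9, which joins STAT2 on DNA, at 28.01, 33.4, 18.7 and 27.6 CPM in control and 17.0, 15.4, 14.3 and 17.5 CPM in knockout (−0.75, adjusted p = 0.157). Hnf4a, a hepatocyte transcription factor, was at −0.43 (adjusted p = 0.341) and Ndufa13, a mitochondrial protein that binds STAT3, at 0.45 (adjusted p = 0.410).

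Target genes of each STAT were set side by side. Of 30 STAT3 targets 29 were tested, with 20 lower and 2 higher at an unadjusted p under 0.05, beside 14% of all tested genes in either direction. EdgeR called 2, both lower, the acute-phase apolipoproteins Saa2 and Saa1. Saa2 fell by 5.90 on the log2 scale (adjusted p = 0.0167) and Saa1 fell by 4.07 (adjusted p = 0.0469, edgeR's quasi-likelihood test for both). The count of 2 called targets moved widely: it was 20 in DESeq2, 0 in limma-voom and under the block, and 19 once control 3 was left out. Dropping knockout 1 gave 6, control 2 gave 4, control 1 gave 1, and control 4 or knockout 2, 3 or 4 gave 0. Knockout lay wholly below control in 20 of the 29, beside 3.86% of all tested genes, and the list median was −1.04. It lay wholly above in 1 of the 29, near the 3.23% of all tested genes. This was Hamp (1.95, adjusted p = 0.343), at 95.6, 1.35, 200 and 119 CPM in controls 1 to 4. The metallothionein Mt2, next by p after Saa2 and Saa1, was at −4.39 (adjusted p = 0.0513). Of 24 STAT2 and IRF9 targets 20 were tested, with a median of −1.23. EdgeR called 0, with 17 lower at an unadjusted p under 0.05, beside 14% of all tested genes in either direction. DESeq2 called 12, beside 278 of all genes, and limma-voom called 0. EdgeR called 16 without control 3, beside 324 of all genes, and 13 without controls 2 and 3, beside 187. It called 1 without knockout 1 and 0 without any other single library or under the block. Wholly below control were 5, beside 3.86% of all tested genes: Parp14 (−1.37), Irf7 (−2.21), Oasl2 (−1.64), Isg15 (−1.23) and Irf9. The summed CPM of this list was 205 in control 3, inside the knockout range of 179 to 223, and 385 to 495 in the other controls. Kupffer and macrophage markers were likewise lowest in control 3, and their part in the interferon genes was not tested.

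Of 20 STAT5 targets of growth hormone signalling, all tested, the median was 0.11. EdgeR called 0, with 3 lower and 2 higher at an unadjusted p under 0.05, beside 14% of all tested genes in either direction. DESeq2 called 2, beside 278 of all genes. EdgeR called 2 without control 3, beside 324 of all genes, and 2 in the Y-positive libraries alone, beside 125. It called 1 without knockout 1 and 0 without any other single library. Cish lay wholly below control, 1 of 20, near the 3.86% of all tested genes. Bcl6, a repressor that STAT5 itself represses, lay wholly above (4.39 ± 1.40 to 9.13 ± 1.47 CPM, 1.05, adjusted p = 0.153). It too was 1 of 20, near the 3.23% of all tested genes. A1bg was at 438 CPM in control 2 and at 0.405 to 3.96 CPM in the other 7 libraries, so its value of −6.75 (adjusted p = 0.192) rests on that library. Igf1, named after its values were seen, had a mean of 391 CPM (SD 136) in control against 423 CPM (SD 45.3) for knockout (0.12, adjusted p = 0.856). Elovl3, a male-biased fatty acid elongase chosen after its values were seen, was at 0.898 to 1.59 CPM in the 3 libraries with at most 5 Y-linked counts and at 132 to 585 CPM in the other libraries. Of 18 STAT6 targets 7 were tested, with a median of −0.11. EdgeR called 0, with 1 lower at an unadjusted p under 0.05, beside the same 14%. DESeq2 called 1, beside 278 of all genes, as did edgeR without control 3, beside 324. EdgeR called 0 without any other single library. Cdh1, E-cadherin, was the 1 tested gene of 7 without overlap (−1.06, adjusted p = 0.125), beside 7.09% of all tested genes. Ccl24 and Klf4 were at −1.72 and 0.40 (adjusted p = 0.381 and 0.735). Of 10 STAT4 targets 5 were tested, with a median of −0.31. EdgeR called 0, with 1 lower and 1 higher at an unadjusted p under 0.05, beside the same 14%. DESeq2 called 0. EdgeR called 1 without control 3, beside 324 of all genes, and 0 without any other single library. Hlx and Gadd45g were at 0.82 and −1.12 (adjusted p = 0.319 and 0.474).

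**Figure D5:**
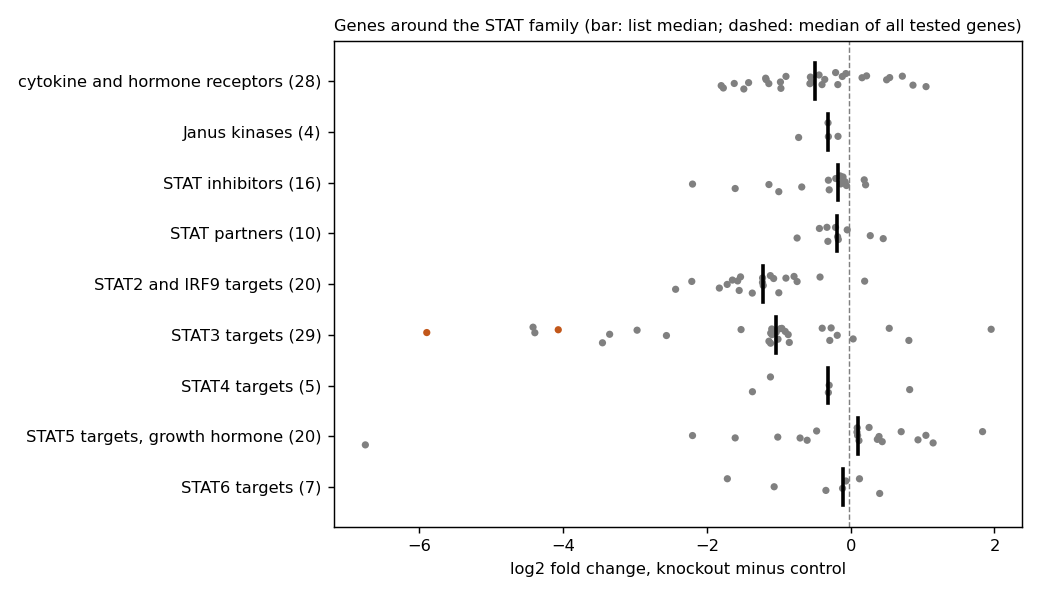
Log2 fold change of each tested gene (points, spread vertically for visibility) in lists of genes around the STAT family, with the number tested in brackets, the list median (black bar) and the median of all tested genes (dashed line). The 2 orange points are the called STAT3 targets Saa1 and Saa2, and the medians of the STAT3 target list and of the STAT2 and IRF9 target list lie near −1.

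For each STAT the genes with the most similar pattern over the 8 libraries were found by the root mean square difference of centred log2 CPM. Nearest to Stat3 were Amot, an angiomotin (0.16), the haem carrier Hpx (0.16) and complement C4b (0.18). Nearest to Stat2 were Fem1c (0.13), Phospho2 (0.14) and Ttll4 (0.15), all highest in control 2. Nearest to Stat5b were Stard3, Ap1ar and Mxd4 (0.05 to 0.07), to Stat6 Zfp710, Vps35l and Fbxo34 (0.06 to 0.07), and to Stat5a Grb2, Afg3l1 and Hgs (0.06 to 0.09). Nearest to Stat4 were Gadd45b (0.31), Tenm3 (0.43) and Ccnd1 (0.44), a pattern that rests on 1 to 20 reads of Stat4 per library. This distance grows with the spread of the STAT itself, so it does not rank the STATs by closeness.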

How the data were processed

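Frozen liver was extracted by the Trizol method and read on the Hiseq X10 platform, per the labels' protocols. Per the submitters' processing notes, CASAVA 1.8, Bowtie, TopHat2 and the build GRCm38 were used. The counting program, annotation, strand setting and filters have no source here. The authors deposited estimated counts (expected counts per gene, not normalized), of which 94.2% were whole.

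Counts were rounded, filtered by filterByExpr, scaled by TMM and tested in edgeR 4.0.16 (R 4.3.3; quasi-likelihood, no covariates), with Benjamini-Hochberg adjustment over 11692 genes and a threshold of 0.05. Standard errors and 95% intervals were derived from F. Log2 patterns used a prior count of 2. Of the identifiers, 99.8% were in GENCODE M21 (GRCm38), which gave positions and lengths. Depth was 15998391 to 19474696 counts per library. Named were the 6 STATs, each pathway list's called genes or, under 3 calls, its 3 smallest p, tested neighbours of Stat3, and the 3 nearest patterns per STAT among genes averaging 1 log2 CPM or more. Other genes without overlap (Il11ra1, Isg15, Hamp) were named after their values were seen. A gene that the naming rule selects is not reported here. Members and lists were chosen with earlier results of these data known. Alternatives were DESeq2 1.42.0, limma-voom (limma 3.58.1), other scalings and filters, terms for Y-linked reads (present above 10 counts), each library left out, and the replicate number as a block. The fit was tested on simulated data.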

Additional observations from a re-analysis of the deposited data

Results flagged for a closer look

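Of 12 groups of 4 libraries (6 genes in control and in knockout), 2 held a library far from the other 3 by Dixon's criterion, which chance meets in about 1 of 20 groups. Stat2 in control 2 was at 42.6 CPM against 22.6 to 23.2 CPM in the other controls. Stat3 in control 3 was at 46.8 CPM against 72.1 to 75.1 CPM in the other controls.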

How the results depend on the processing

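The direction of Stat3, Stat2 and Stat6 was the same under all alternatives run, with log2 fold changes of −1.41 to −1.10, −0.77 to −0.40 and −0.33 to −0.05. Stat2, Stat5a, Stat5b and Stat6 passed the threshold under none. Stat3 missed it with total count scaling (−1.34, adjusted p = 0.0961), limma-voom (−1.25, 0.0670), Alb removed (−1.26, 0.0521) and the replicate number as a block (−1.25, 0.107). Leaving out 1 library gave −1.41 to −1.2 for Stat3. Stat5a turned to −0.0218 with total count scaling and −0.0796 without controls 2 and 3, and ranged from −0.0805 to 0.127 over single libraries left out. Stat5b turned to 0.0187 in Y-positive libraries alone and ranged from −0.140 to 0.119 over single libraries left out. The causes were not tested.

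Genes called numbered 11 with upper quartile scaling, 1 with total count scaling, 62 without a filter, 8 with a filter of 1 CPM in 4 libraries, 278 in DESeq2, 0 in limma-voom, 0 under the block, 187 without controls 2 and 3, 27 with a term for Y-linked presence and 57 with one for Y-linked level, 125 in Y-positive libraries alone, 1 without Alb and 0 to 324 with 1 library left out. STAT genes called were 0 under total count scaling, the block, limma-voom and without Alb, and 0 to 1 with 1 library left out. In the same order of settings, genes called over all 18 lists together numbered 5, 1, 15, 5, 43, 0, 0, 42, 9 and 10, 17, 1 and 0 to 60, against 2. Neighbours of Stat3 called numbered 1 without a filter, in DESeq2, without controls 2 and 3 and with the level of Y-linked reads, and 0 to 1 with 1 library left out. By the longest transcript Stat3 made up 30.6% and 17.8% of the summed level in control and knockout.

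Same-numbered control and knockout libraries deviated from their group means with correlations of 0.32, −0.25, 0.09 and 0.18 over tested genes, so the numbers were not taken as pairs, and under the block 0 genes were called. Stat4 had 1 to 20 counts per library and an interval of 0.399 to 3.28 as a fold.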
